A study of Oryza sativa with 8 samples.

Results

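The most abundant transcripts of rice leaf blades that were listed as changed by salt in blades but not in leaf sheaths numbered 134, out of 4623 listed blade genes and 5827 genes listed in either tissue. They were chosen by 3 criteria: a mean control level of at least 300 TPM (transcripts per 1000000), a log2 ratio of salt to control TPM, each with 1 added, above -1.5, and absence from the sheath list. A fixed set of 16 identifiers, which includes the blade markers described below, was left out by name. Because these values chose the members, the levels and the changes between salt and control are given as a description, with no new test.

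The plants were Oryza sativa grown hydroponically. One group of 2 leaf blade samples was kept as control and another 2 came from plants given 100 mM NaCl for 24 h. The sheath groups, control and salt with 2 samples each, entered only through their list. The series concerns a Japanese landrace, but the sample labels name no variety. Nor do they say whether both samples of a group are of separate plants, so the authors' q-values measure a spread that may be technical. The authors deposited one mean per group, so no value per sample, SD or standard error can be given for a blade gene.

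The chloroplast of a leaf blade captures light with photosystem II and photosystem I, which are joined by an electron transport chain and feed ATP and reducing power to the Calvin cycle, where carbon dioxide is fixed. Photorespiration recycles the product of the oxygenation reaction of Rubisco. The nuclear genes for these proteins are among the most strongly expressed genes of green leaves. Other abundant leaf transcripts encode metallothioneins, which are small cysteine-rich metal-binding proteins, aquaporins, which conduct water, and enzymes of sugar metabolism.

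The label of the tissue could not be checked against sheaths. The blade list holds only genes called changed by salt, and the sheath levels have no named unit. Of 8 blade markers (identifiers held, from general knowledge, to be those of Rubisco small subunits, Rubisco activase and light-harvesting proteins), 7 were listed, at 2171 to 53569 TPM in control and 1380 to 28778 TPM with salt. All 7 were lower with salt in the authors' deposited table. A shoot meristem marker, OSH1, was not listed, which does not give its level, and was not analysed here. These are bulk samples, in which fewer cells of a type and less RNA per cell cannot be told apart.

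The members took 23.7% of all blade TPM in control and 21.2% with salt. In the authors' deposited table, 114 of the 134 were lower with salt and 20 were higher, whereas 48.3% of all listed blade genes were lower and 51.7% were higher. The members' median change (log2) in the authors' deposited table was -0.46, against 0.27 over all listed blade genes. The 212 listed blade genes at 300 TPM or more in control include the members. Of these 212, 164, or 77.4%, were lower in the authors' deposited table, with a median of -0.39. Nothing is read from these differences, since the rule used the same contrast. Most changes were small: 70 members had an absolute log2 fold change under 0.5 in the authors' deposited table, or 52.2% against 30.7% of all listed blade genes. This is not particular to the members. The share was 53.8% in all 212 listed blade genes at 300 TPM or more in control. It was 61.3% in the 62 of those that were also in the sheath list. A fall of at least 1 on the log2 scale was seen in 8 members in the authors' deposited table and a rise of that size in none, against 12.5% and 19.8% of all listed blade genes.

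**Figure D1:**
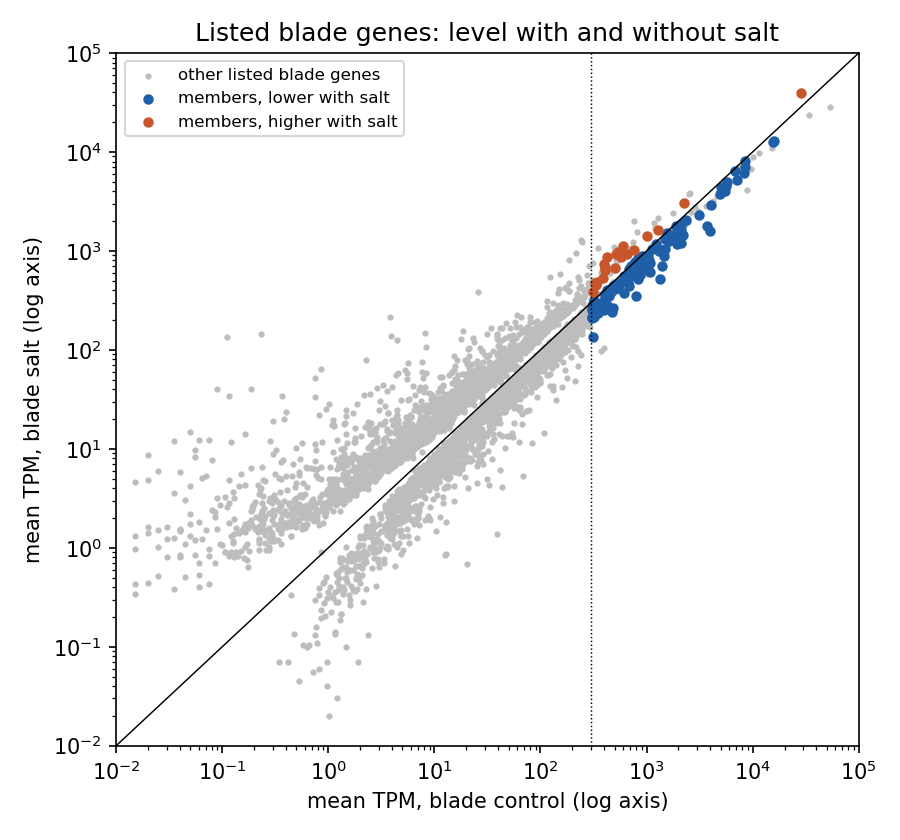
Mean TPM with salt (vertical, log axis) against mean TPM in control (horizontal, log axis) for listed blade genes above 0 in both groups. Coloured points are the 134 members and grey points the other listed genes, the solid line marks equal levels and the dotted line the minimum of 300 TPM. The 114 members that were lower in the authors' deposited table lie mostly just under the line, and the highest orange point is the member that went from 28378 to 39150 TPM.

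The files name no genes. A name is printed for the 26 members whose name stands in a RefSeq table on the chromosome that the identifier states. Beyond these, 16 role lists pair identifiers with products from general knowledge, and 49 of the 134 members were in such a list. Of these 49, the name of 21 was found on the right chromosome, that of 24 was not in the table, that of 3 stood on another chromosome and 1 pair was set aside as doubtful. The counts by list include the pairs that were not found or went against the table. A member without a checked name is given by identifier, and where it is counted in a list, its place there is unchecked. Of 90 identifiers in 7 lists for light capture, electron transport, carbon fixation, photorespiration and chlorophyll synthesis, 74 were listed in blades, 70 lower and 4 higher in the authors' deposited table. For comparison, 48.3% of all listed blade genes were lower, and 77.4% of the 212 at 300 TPM or more in control. The same shares stand beside the counts by list below. Members held 33 of the 90 identifiers, all 33 lower in the authors' deposited table. The median log2 change was -0.48 in these 33 and -0.46 in all members. The 33 made up 54.6% of the members' TPM in control and 48.8% with salt. The summed level of the 33 went from 12.9% to 10.3% of all TPM, a change of -19.9%. The 3 pairs that the table puts on another chromosome are among these 33, in the photosystem I, Calvin cycle and light-harvesting lists. Without them the change was -18.4% over 30 members, and over the 13 with a checked name it was -21.1%, with all members lower in the authors' deposited table in both cases. The other 101 members held 10.8% in both groups, 81 of them lower and 20 higher in the authors' deposited table. That level share rests on 1 gene, Os01g0200700: without it the other 100 went from 7.93% to 6.92% of TPM, a change of -12.7%.

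Photosystem I is the complex that passes electrons to ferredoxin. Of the 9 identifiers in its list, all 9 were listed and lower in blades in the authors' deposited table, and 8 were members, 1 of them with a checked name and 1 whose name stood on another chromosome. Their control levels lay within a 2.05-fold range, from 4030 to 8250 TPM, and their salt levels from 2891 to 6441 TPM. The 8 log2 fold changes in the authors' deposited table ran from -0.66 to -0.28, with a median of -0.56. PSAH (Os05g0560000), a small subunit that takes part in docking light-harvesting complex II, had a mean of 8250 TPM in control and 6117 TPM with salt. The authors' deposited table puts its change at -0.62 (log2) and q at 2.7e-17.

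Photosystem II splits water with the help of an extrinsic oxygen-evolving complex. Of 11 identifiers in its list, 9 were listed in blades, all lower in the authors' deposited table, and 7 were members, 2 of them with a checked name. The 7 had control levels from 487 to 8414 TPM, a wider range than that of the photosystem I members. Their log2 fold changes ran from -1.05 to -0.26 in the authors' deposited table. Both 487 TPM and -1.05 were values of 1 member without a checked name, Os07g0147500. Without it the changes ran from -0.57 to -0.26, no wider than in the photosystem I members. PSBW (Os01g0773700), a small subunit, went from 8414 to 7085 TPM. For PSBW, the authors' deposited table has -0.44 (log2) at q = 1.8e-10. PSBQ (Os07g0544800), also called OEE3, an extrinsic protein of the oxygen-evolving complex, went from 4923 to 3800 TPM. For PSBQ, the authors' deposited table has -0.57 (log2) at q = 2.0e-14.

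In the electron transport and ATP synthase list, 8 of 10 identifiers were listed in blades and lower in the authors' deposited table, and 4 were members, 2 of them with a checked name. PETE (Os06g0101600), plastocyanin, the copper protein that carries electrons to photosystem I, was the second most abundant member. Plastocyanin went from 16031 to 12873 TPM. For plastocyanin, the authors' deposited table has -0.51 (log2) at q = 2.6e-10. LFNR1 (Os06g0107700), the leaf ferredoxin-NADP+ reductase that hands electrons on to NADP+, went from 1644 to 1254 TPM. For LFNR1, the authors' deposited table has -0.58 (log2) at q = 8.4e-20. In both groups plastocyanin held the same place, 4, among all listed blade genes ordered by TPM.

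Of 19 identifiers in the Calvin cycle list, 17 were listed in blades, 16 lower and 1 higher in the authors' deposited table. The rule left out 5 of them by name, and 6 of the others, 2 with a checked name and 1 whose name stood on another chromosome, were members, all lower with log2 fold changes from -0.55 to -0.33 in the authors' deposited table. RPE (Os03g0169100), ribulose-phosphate epimerase of the regenerative phase, went from 1779 to 1458 TPM. For RPE, the authors' deposited table has -0.48 (log2) at q = 2.7e-14. FBPase (Os03g0267300), the chloroplast fructose bisphosphatase, went from 500.1 to 413 TPM. For FBPase, the authors' deposited table has -0.47 (log2) at q = 9.8e-08. The largest and the smallest change of the 6 were 0.23 apart, and their control levels had a 30.9-fold range. That range rests on 1 member whose name was not in the table, Os01g0639900 at 15460 TPM. The list holds this identifier under the unchecked name CA, and it is not taken here as an enzyme of the cycle. The next highest was RPE at 1779 TPM.

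Photorespiration and the refixation of the ammonia it frees were represented by 3 members, 2 of them with a checked name. Of the 15 identifiers in this list, 11 were listed in blades, 8 lower and 3 higher in the authors' deposited table. GDCH (Os10g0516100), the H protein of the mitochondrial glycine decarboxylase complex, went from 1940 to 1177 TPM. For GDCH, the authors' deposited table has -0.90 (log2) at q = 1.2e-43. GS2 (Os04g0659100), the plastid glutamine synthetase that takes up the ammonia, went from 1836 to 1395 TPM. For GS2, the authors' deposited table has -0.59 (log2) at q = 6.7e-22.

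Chlorophyll synthesis gave 4 members, all with a checked name and all lower in the authors' deposited table, out of 12 list identifiers of which 8 were listed in blades. They are given in the order of the pathway. GluTR (Os10g0502400), glutamyl-tRNA reductase at its start, went from 485 to 441 TPM. For GluTR, the authors' deposited table has -0.28 (log2) at q = 2.4e-04. CHLI (Os03g0563300), a subunit of magnesium chelatase, went from 359 to 293 TPM. For CHLI, the authors' deposited table has -0.48 (log2) at q = 1.8e-10. PORB (Os10g0496900), a light-dependent protochlorophyllide oxidoreductase, went from 844 to 701 TPM. For PORB, the authors' deposited table has -0.47 (log2) at q = 2.1e-10. CAO (Os10g0567400), which makes chlorophyll b from chlorophyll a precursors, had the smallest change of the 4, from 425 to 398 TPM. For CAO, the authors' deposited table has -0.24 (log2) at q = 0.0014. PORA, a second protochlorophyllide oxidoreductase, went from 400.1 to 105 TPM, which is past the ratio limit, so it is no member.

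The light-harvesting list had 8 of its 14 identifiers left out by name, and 1 was a member. The name paired with that member stood on another chromosome in the table, so the list gives no result here.

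The larger falls were spread over members with and without a name. Os01g0720500 went from 3940 to 1577 TPM. For Os01g0720500, the authors' deposited table has -1.51 (log2) at q = 2.5e-101. Its mean reads were not means of 2 whole numbers, so its counts were estimated, which makes the value less certain where similar copies share reads. The same holds for Os01g0357100 and Os02g0161900. LIR1 (Os01g0102900), a light-regulated chloroplast protein known to bind leaf ferredoxin-NADP+ reductase at the thylakoid membrane, went from 3698 to 1771 TPM. The authors' deposited table puts its change at -1.25 (log2) and q at 3.3e-64, while LFNR1 changed by -0.58. Os01g0971000 had the largest fall of all members, from 1352 to 517 TPM, and -1.57 (log2, q = 2.5e-104) in the authors' deposited table. Between Os01g0720500 and LIR1 came Os01g0357100, from 311 to 134 TPM, and Os11g0147800, from 792 to 351 TPM, with -1.38 and -1.36 (log2) in the authors' deposited table. After LIR1 came Os02g0818000, from 1404 to 699 TPM, and Os12g0274750, from 473 to 244 TPM. The locus number of Os12g0274750 is close to that of Os12g0274700, a blade marker left out by name. They had -1.14 and -1.09 (log2) in the authors' deposited table, and whether they share reads was not tested. Os07g0147500 went from 487 to 266 TPM, and its -1.05 (log2) in the authors' deposited table came with a weaker q, 2.4e-05.

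**Figure D2:**
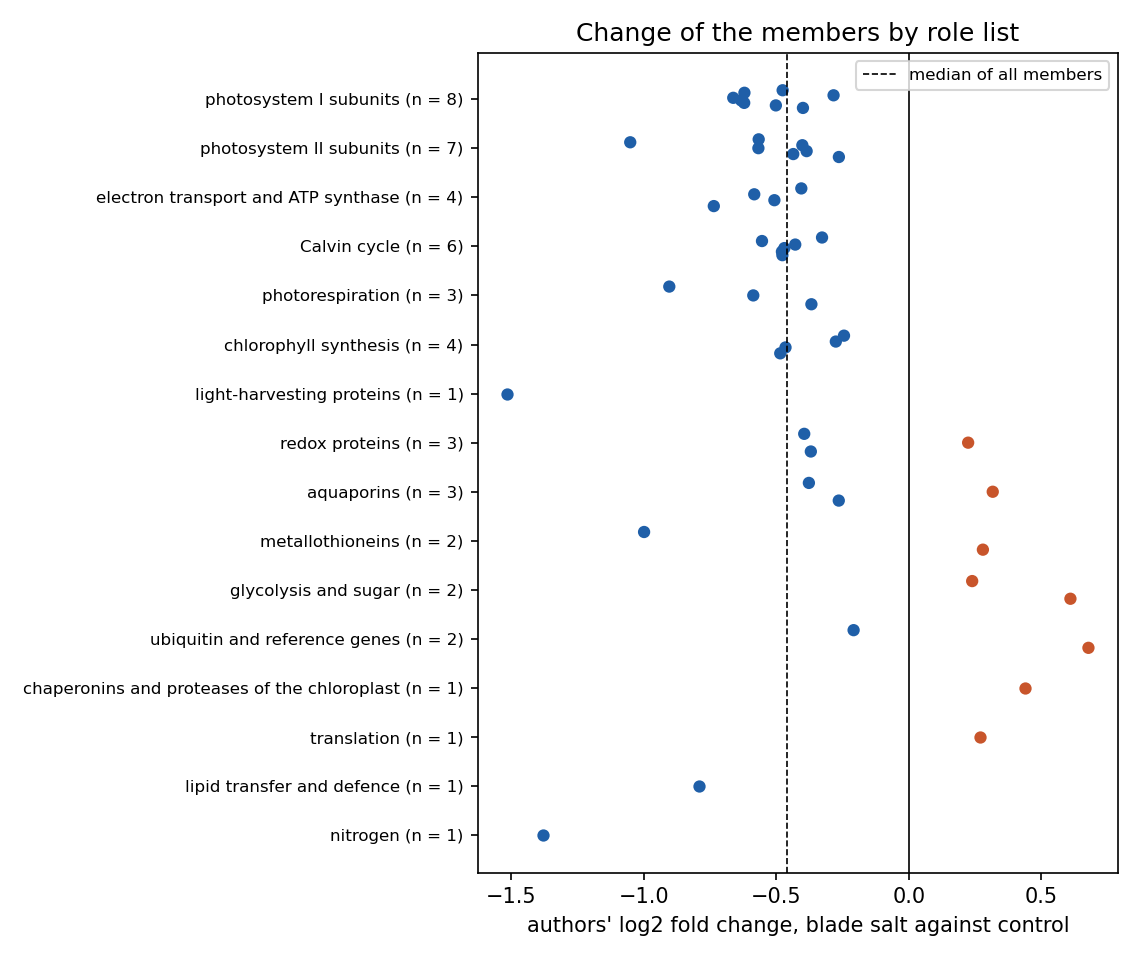
Log2 change given by the authors' deposited table (horizontal, blade salt against control) of the 49 members in 16 role lists, 1 point a gene and the number of members beside each list. The 33 members of the 7 upper lists all lie left of 0, within -1.51 and -0.24. The 9 lower lists hold 8 points to the right of 0 and 8 to the left. Pairs not found or on another chromosome are included, among them the points at -1.51, -0.79 (lipid transfer and defence) and -1.38 (nitrogen). The dashed line is the median of the 134 members, -0.46.

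Among redox proteins, the members were 2 chloroplast proteins that were lower and 1 cytosolic protein that was higher. TRXM (Os12g0188700), an m-type thioredoxin of the chloroplast, went from 2372 to 2064 TPM. For TRXM, the authors' deposited table has -0.39 (log2) at q = 7.9e-08. BAS1 (Os02g0537700), a 2-Cys peroxiredoxin that removes peroxide in the chloroplast, went from 538 to 475 TPM. For BAS1, the authors' deposited table has -0.37 (log2) at q = 1.3e-07. SODCC1 (Os03g0351500), a cytosolic copper-zinc superoxide dismutase, rose from 504 to 671 TPM. For SODCC1, the authors' deposited table has 0.22 (log2) at q = 0.0074. Of all 16 redox identifiers, 13 were listed in blades, 6 lower and 7 higher in the authors' deposited table.

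The most abundant member, Os01g0200700, without a checked name, went from 28378 to 39150 TPM. For Os01g0200700, the authors' deposited table has 0.28 (log2) at q = 4.1e-04. In control it stood at place 3 among all listed blade genes ordered by TPM, and with salt at place 1, above Os12g0274700, which went from 53569 to 28778 TPM and was left out by name. The third most abundant member, Os01g0639900, went from 15460 to 12699 TPM, with -0.48 (log2, q = 8.2e-11) in the authors' deposited table. The other members without a checked name among the 12 highest were Os01g0501800, Os07g0148900, Os08g0560900, Os03g0778100, Os04g0414700, Os09g0481200 and Os12g0189400, at 8406, 7169, 6874, 5683, 5596, 5469 and 5192 TPM in control. With salt they were at 8008, 5267, 6441, 4925, 4505, 4060 and 4258 TPM, so each was lower. Among named members, MT2B (Os01g0974200), listed as MT2B and OsMT2c in the table, where OsMT2b is another gene on chromosome 5, is a metallothionein and had one of the larger falls, from 2091 to 1189 TPM. For MT2B, the authors' deposited table has -0.998 (log2) at q = 1.9e-39. The gain of Os01g0200700, 10773 TPM, was 65.1% of the 16554 TPM gained by the 21 members whose TPM was higher with salt. The other 113 members together changed by -41597 TPM, for a net change of -25043 TPM.

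Other abundant transcripts rose. GLYI-11 (Os08g0191700), a glyoxalase I that detoxifies methylglyoxal, rose from 606 to 1127 TPM. For GLYI-11, the authors' deposited table has 0.70 (log2) at q = 8.0e-25. GAPC1 (Os08g0126300), the cytosolic glyceraldehyde-3-phosphate dehydrogenase of glycolysis, rose from 1017 to 1405 TPM. For GAPC1, the authors' deposited table has 0.61 (log2) at q = 8.1e-21. Both members of the glycolysis and sugar list, 1 of them with a checked name, were higher. So were all 6 of its 8 identifiers that were listed in blades in the authors' deposited table, against 51.7% of all listed blade genes. As in the other lists, this count includes pairs that were not checked. The name GAPC1 was also paired with Os04g0486600 on chromosome 4, where the name was not found. RAN2 (Os05g0574500), a small GTPase of nuclear transport, went from 1282 to 1640 TPM. For RAN2, the authors' deposited table has 0.17 (log2) at q = 0.041, the smallest change of all members in that table, while its log2 TPM ratio was 0.36. The largest rise was that of Os03g0100200, without a name, from 426 to 878 TPM. For Os03g0100200, the authors' deposited table has 0.85 (log2) at q = 3.2e-25. Os06g0318800, Os02g0161900 and Os03g0306800, also without a name, rose from 534 to 979 TPM, from 401 to 732 TPM and from 519 to 930 TPM. Os05g0169100 and Os06g0114000 rose from 409 to 636 TPM and from 339 to 482.5 TPM.

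Aquaporins gave 3 members, which went in different directions. PIP1;2 (Os04g0559700), a plasma membrane aquaporin, rose from 650.3 to 924 TPM. For PIP1;2, the authors' deposited table has 0.32 (log2) at q = 4.9e-05. PIP2;7 (Os09g0541000) went from 1500.2 to 1321 TPM and PIP2;2 (Os02g0629200) from 692 to 656 TPM, with -0.38 and -0.26 (log2) in the authors' deposited table. As log2 ratios of mean TPM, the same genes were at 0.51, -0.18 and -0.08. With 3 genes, this is a description and not a statement on the subfamilies.

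**Figure D3:**
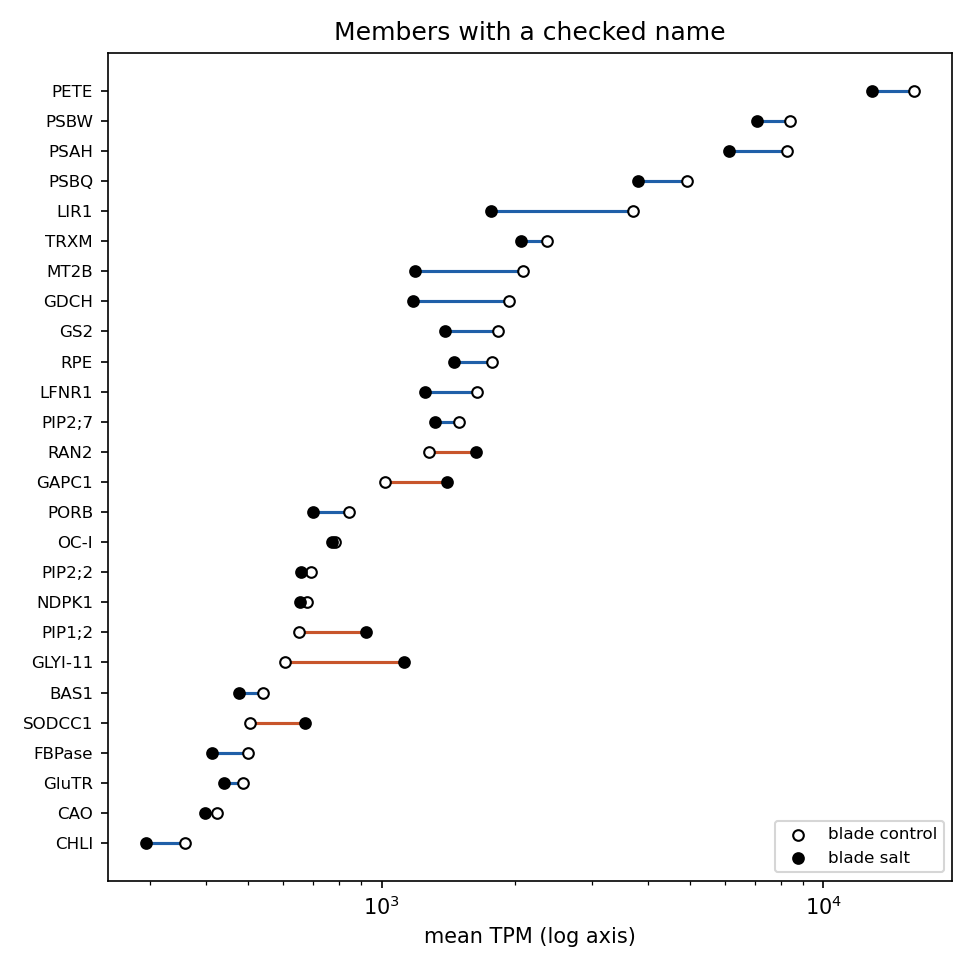
Mean TPM (horizontal, log axis) in blade control (open circles) and blade salt (filled circles) of the 26 members with a checked name, ordered by control level. Blue lines join members with less TPM in salt and orange lines those with more, which are RAN2, GAPC1, PIP1;2, GLYI-11 and SODCC1. LIR1, from 3698 to 1771 TPM, has the longest blue line.

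Members near 0 changed sides with the scale, since the scales differ by near-constant shifts. Log2 fold changes in the authors' deposited table lay a median of 0.18 below the log2 TPM ratio over all listed blade genes and 0.19 below it in the members. The median log2 TPM ratio of the members was accordingly -0.26, against 0.42 over all listed blade genes. By TPM, 113 members were lower and 21 higher, against 51.9% of all listed blade genes higher, and the 1 that changed sides, Os03g0227800, went from 828 to 831 TPM while the authors' deposited table gave -0.22. By mean reads scaled to the summed reads of all listed genes, which adds the same 0.10 to every log2 read ratio, 107 members were lower and 27 higher. OC-I (Os01g0803200), oryzacystatin, an inhibitor of cysteine proteases, was among the 7 that changed sides, at -0.19 in the authors' deposited table and 0.04 by scaled reads. NDPK1 (Os07g0492000), a nucleoside diphosphate kinase, was at -0.23 in the authors' deposited table, -0.05 by TPM and -0.0026 by scaled reads, which is practically 0.

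Within the members, level and change were loosely arranged. Of the 13 members at 5000 TPM or more in control, 12 were lower in the authors' deposited table, with a median log2 change of -0.48. The 34 members from 1000 to 5000 TPM had 31 lower and a median of -0.58, the 39 members from 500 to 1000 TPM had 32 lower and a median of -0.35, and the 48 members under 500 TPM had 39 lower and a median of -0.46 in the authors' deposited table. For comparison, that table has 85.1% of all members, 77.4% of the 212 listed blade genes at 300 TPM or more and 48.3% of all listed blade genes lower. Nothing is read from the differences between the classes. The summed TPM of the 1000 to 5000 TPM class changed by -24.3% and that of the class above it by -4.94%. The latter rests on Os01g0200700, without which the 12 others of that class changed by -17.4%. Of the 134 members, 109 were still at 300 TPM or more with salt.

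By the number of the chromosome in their identifiers, chromosome 1 held the most members, 22 of 134. Of these, 18 were lower in the authors' deposited table. Chromosome 1 also held 704 of the 4623 listed blade genes, 44.2% of them lower, so nothing is read from the 22. All 16 members on chromosome 7 were lower in the authors' deposited table, where 85.1% of all members and 55.4% of all listed blade genes on that chromosome were lower. The members on chromosomes 10, 11 and 12 were also all lower there, but numbered only 6, 2 and 6. Of all listed blade genes on these chromosomes, 47.2%, 46.8% and 59.9% were lower. RAN2 and its neighbour in locus number, Os05g0574400, went opposite ways, with 0.17 and -0.24 (log2) in the authors' deposited table. TRXM and Os12g0189400, 700 apart in locus number, were both lower, at -0.39 and -0.48 in the authors' deposited table.

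The 85 members in no role list took 6.502% of TPM in control and 5.58% with salt. They included 12 higher and 73 lower genes in the authors' deposited table, with log2 fold changes from -1.57 to 0.85 and a median of -0.47. Their control levels ran from 303 to 3698 TPM, so all members at 3940 TPM or more were in a role list. The lists were chosen with earlier results of these data known, so nothing is read from this.

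Set beside the other abundant listed blade genes, the members had a median change, -0.46 (log2) in the authors' deposited table, between those of 2 groups. Of 212 listed blade genes at 300 TPM or more in control, 62 were also in the sheath list, and the authors' deposited table has 28 of these higher and 34 lower, with a median of -0.22 (log2). Their summed share went from 8.15% to 8.69% of TPM. The 14 that the rule left out by name were all lower in the authors' deposited table, with a median of -0.55, and went from 17.9% to 12.6% of TPM. The ratio limit removed 2 genes. No test of these differences was made, because the same contrast chose the groups. The sheath list stops at an adjusted p of 0.004 and the blade list at q up to 0.0499, so absence from the sheath list does not show that a gene was unchanged in sheaths.

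At the level threshold, the lowest members were Os09g0420800, Os08g0139100 and Os12g0145100 with 303, 303 and 308 TPM in control. The nearest genes outside, Os03g0856500, Os05g0508500 and Os06g0646600, had 294, 294 and 293 TPM. At the ratio threshold, the lowest log2 TPM ratios inside were -1.38, -1.32 and -1.21, of Os01g0971000, Os01g0720500 and Os01g0357100. The 2 outside were CATA, a catalase, at -1.92 and PORA at -1.92.

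The depth behind these values was high. Mean reads of a member ran from 662.5 to 277707 over both groups, and the listed genes as a whole summed to 10745825 reads in control and 9995664 with salt. Exact 95% counting intervals of the ratio of salt to control reads had a median width of 3.95% of the ratio and a widest of 13.99%. They cover counting error only, and reads without molecular identifiers are not independent molecules. The widest belonged to Os02g0750100, whose 860 TPM in control rested on 1012.5 reads and whose read ratio was 0.654 with an interval from 0.610 to 0.702.

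Reads and TPM followed each other closely for nearly all members. Over all listed genes, the log2 ratio of reads to TPM was lower with salt by a median of 0.06, and only 5 members, or 3.73%, departed from this by 0.1 or more, against 7.23% of 1107 listed genes with at least 1000 reads in both groups. GAPC1 departed most, by 0.34: its reads rose from 16724 to 27885, a log2 ratio of 0.74, while its log2 TPM ratio was 0.47. The size of its rise thus depends on the unit, but not its direction.

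**Figure D4:**
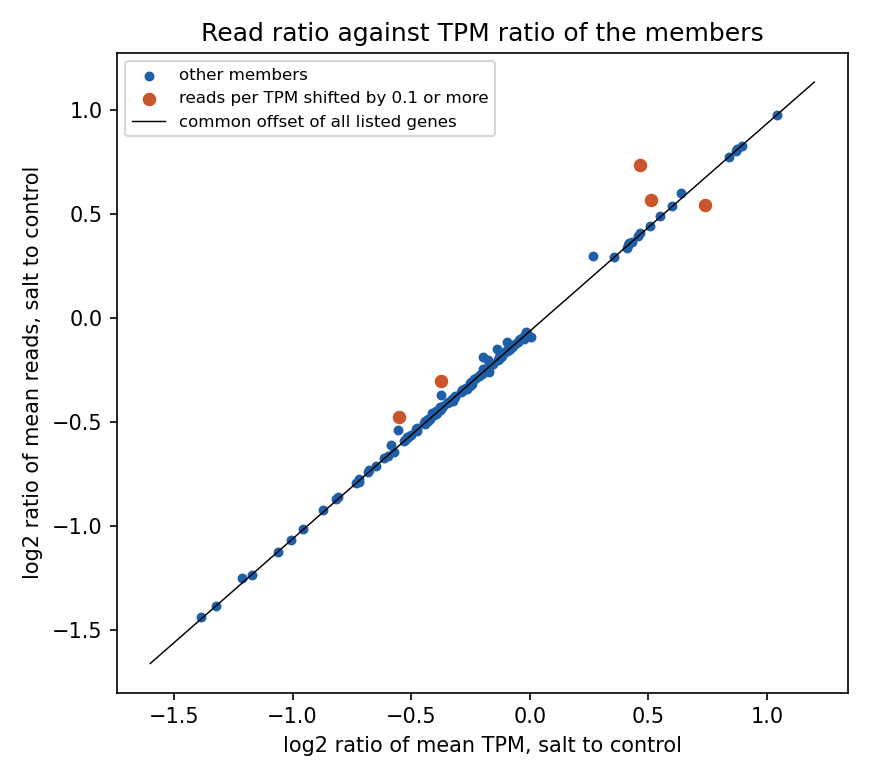
Log2 ratio of mean reads (vertical) against log2 ratio of mean TPM (horizontal), salt to control, for the 134 members. The line is the common offset of all listed genes, -0.06. Orange points are the 5 members that depart from it by 0.1 or more, of which GAPC1, at 0.47 and 0.74, is farthest from the line.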

How the data were processed

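Per the labels' protocols, DNase-treated total RNA went into an mRNA library kit. The submitters' processing notes name HISAT and mm10, a mouse build that cannot belong to rice identifiers. How reads were counted and tested is not given in the sources used here.

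Deposited were 2 tables of genes already selected as changed. Per the file headers, the blade table holds a log2 fold change, a q-value and, for each group, the means of FPKM, TPM and read count. The mean read counts were treated as estimated counts of the authors, since some deposited means are not means of 2 whole numbers (tolerance 0.001). Case1 was read as the salt group, since blades have no further group. The deposited sheath table holds a log2 fold change, levels of unnamed unit (treated as a score), a statistic and p-values, of which the identifiers and the highest adjusted p were used.

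No test across all genes was possible, so the authors' fold changes and q-values are quoted. Computed here were counts, medians, sums, TPM ratios with a pseudocount of 1, and exact (Clopper-Pearson) 95% counting intervals of read ratios. The selection was tested on simulated data. The members, lists and added names were chosen with earlier results of these data known. Genes were named by level (the 12 highest), by change (the 8 highest and 8 lowest), by role and by nearness to the thresholds, and members without a checked name by identifier where the text turns on them. The design also foresaw promoter motifs and protein lengths, which were not analysed here. In the RefSeq table, of another assembly, 0 of the 5827 identifiers occurred, so 156 pairs of name and identifier from general knowledge were checked. Of these, 68 had the name on the same chromosome, 8 on another and 80 not in the table. Position and locus number ran in the same order in 204 of 209 comparisons. After seeing this, 2 pairs were set aside as doubtful, 1 of them because it broke the order, which left 66 pairs and no break in 198 comparisons, so that this order is no independent check. Of the 26 printed names, 17 were added, or matched by an alias chosen, after the table had been seen. The software was SciPy 1.17.1, matplotlib 3.10.9, pandas 2.3.3 and numpy 2.4.6 under Python 3.11.15.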

Additional observations from a re-analysis of the deposited data

How the results depend on the processing

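The number of members was 217 with a minimum of 200 TPM and 86 with 500 TPM. Without members under 0.5 in absolute log2 fold change, 6 were higher and 58 lower. At q up to 0.0001, chosen after seeing the data, 10 were higher. The median log2 change of the members was -0.26 by TPM ratio (pseudocount 1 or 0), -0.32 by FPKM ratio and, chosen after seeing the data, -0.33 by read ratio. Without the 3 members of highest control TPM, the members' share was 17.7% of TPM in control and 14.7% with salt, a change of -16.9% in place of -10.6%; as a share of summed listed FPKM the change was -4.00%. Chosen after seeing the data, leaving out the most abundant member gave -17.2% for all members, -17.4% for those at 5000 TPM or more and -12.7% in place of 0.667% for the members outside the 7 chloroplast lists, a reversal made by that 1 gene. The 7 lists gave -18.4% without pairs on another chromosome and -21.1% with checked names only. The counts of higher and lower members stayed within 1.5 times under the TPM, read and FPKM ratios and q up to 0.01. Leaving out single replicates could not be run on group means. No paired analysis was possible because the tables hold no values per sample. Effects under about 0.2 on the log2 scale are limited by the choice of scale.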

Other observations

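Some abundant members, 3 in all, had a weak q for the size of their change. Of the 64 members with an absolute log2 fold change of at least 0.5 in the authors' deposited table, 61 had q of at most 2.9e-08, and 3 lay above 1e-06. They were Os07g0147500, Os02g0731600 and Os03g0306800, with q = 2.4e-05, 6.3e-04 and 0.013 beside -1.05, -0.80 and 0.65 (log2) in the authors' deposited table. GLYI-11, with a log2 fold change of 0.70, had q = 8.0e-25 there. Counting error of Os03g0306800 was small, with a read ratio of 1.71 and a 95% interval from 1.67 to 1.76. The values per sample that would show the spread behind these q-values were not analysed here.

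The most abundant members had few reads per TPM, a measure of annotated transcript length. Relative to the median of listed genes with at least 1 TPM in control, it was 0.556 in the members at the median and 0.321 in the 13 members at 5000 TPM or more. TPM divides by length, so the rule is not independent of this. Os02g0750100 stood lowest at 0.046, and the next was Os08g0129800 at 0.142.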
